A study of Homo sapiens with 208 samples.

Results

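The effect of EGF in PC9 cells that were already under gefitinib was followed here, as the log2 difference between the course with EGF and gefitinib and the course with gefitinib alone. PC9 is a human lung adenocarcinoma line whose EGFR carries an activating deletion, and its growth is blocked by gefitinib, an inhibitor of the EGFR kinase. The members are the PC9 arrays of these 2 treatments from 0.5 to 24 h, chosen by cell line and treatment, which gave 25 arrays a side and 50 of the 104 arrays of PC9. The rest of the study is as many arrays again of the resistant line PC9GRM2. The 2 arrays at 0 h served as a baseline check. All cells were starved for 48 h. The gefitinib course received 0.5 uM gefitinib before the start of the course, and the other course received the same inhibitor and 100 ng/ml EGF from 0 h. Both courses therefore carry the drug, and they differ in the added ligand. The comparators were the PC9 courses with no treatment and with EGF alone, and the gefitinib courses with and without EGF of PC9GRM2, a gefitinib-resistant line isolated as a clone from PC9 cells kept in the drug. Each treatment and time point was hybridized once. The 25 time points stood in for replicates, and the p-values measure the spread between time points of 1 experiment.

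EGF binds EGFR, the receptor dimerizes and phosphorylates itself, and the signal runs through RAS, RAF and MEK to the kinase ERK. ERK induces immediate-early transcription factors within the first hour and then genes such as the DUSP phosphatases and the Sprouty proteins, which damp the pathway that induced them. In lung cells with an activating EGFR deletion the pathway is on without ligand, and gefitinib occupies the ATP pocket of the kinase, so that bound EGF meets a blocked enzyme.

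Levels are log2 intensities after quantile normalization, and a difference of 1 is a change of 2-fold. A gene was called at a Benjamini-Hochberg adjusted p under 0.05 over all 13261 genes tested with limma. The PC9 arrays of the gefitinib courses had 26689 to 36332 features well above background. Each slide held the 4 treatments of one line at one time point, and a treatment always lay at the same place of the slide, so treatment and slide position cannot be told apart. The gefitinib arrays from 14 to 17 h stood furthest from their neighbours in time (SD over genes 0.774, 0.666, 0.87 and 0.61), the differences between the courses were widest at 14, 16 and 17 h, and only 221 features were saturated at 16 h against 321 to 1227 on the other gefitinib arrays. Epithelial markers such as KRT18 and EPCAM were high on all 50 arrays, and 13 of 14 were tested. NKX2-1, a defining factor of lung adenocarcinoma, was well above background on only 4 of the 50 arrays. The leukocyte marker PTPRC was well above background on 1 array, the endothelial markers KDR and TEK on 1 and 0, and the fibroblast markers COL1A2 and COL3A1 on 1 and 2. The exceptions among these markers were THY1, CD14, CD68, PECAM1 and VWF, which were well above background on 50 of 50 arrays, and no marker tested was called.

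Under gefitinib, 6 of 13261 genes (0.0452%) were called between the courses with and without EGF. TNFRSF12A, ODC1, PLK1 and TTL were higher with EGF (0.0302% of genes), and SERPINB3 and SERPINB4 were lower (0.0151%). TNFRSF12A encodes Fn14, the receptor of the cytokine TWEAK. ODC1 is ornithine decarboxylase, the first enzyme of polyamine synthesis. PLK1 is a kinase of mitotic entry and spindle assembly, TTL adds tyrosine back to tubulin, and SERPINB3 and SERPINB4 are neighbouring paralogs that encode the squamous cell carcinoma antigens, inhibitors of proteases. At an unadjusted p under 0.05 there were 1403 genes (10.6%), of which 973 were higher (7.34%) and 430 lower (3.24%). Without the pairs at 14, 16 and 17 h, 25 genes were called (0.189%), 20 higher and 5 lower, with all 6 among them, and 24 (0.181%) without the 4 pairs from 14 to 17 h, again with all 6. Limma's array weights called 320 genes (2.41%), 227 higher and 93 lower. The fits without these pairs and with array weights were chosen after the data were seen, here and in the lists below. All 6 calls were lost without the pair at 0.5 h or at 10 h, with scan day as a random block (adjusted p of the 6 from 0.0501 to 0.123, 1122 genes at an unadjusted p under 0.05), when the time points used lay 3 h apart (432) and once the variance was raised to allow for autocorrelation (906). The last of these fits never lowered a variance, so it could only lose calls.

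TNFRSF12A had levels of 12.27, 13.02 and 13.74 (lowest, median and highest of 25 arrays) with gefitinib and of 12.50, 13.24 and 14.09 with EGF and gefitinib. The ranges overlapped, and the array with EGF was the higher one at 24 of 25 time points. The mean difference was 0.21 ± 0.03 (SE, n = 25 time points, adjusted p = 0.0202), and it was 0.04 in the pair at 0 h. ODC1 had levels of 10.38, 10.91 and 13.80 with gefitinib and of 10.59, 11.38 and 13.99 with EGF and gefitinib, against 13.67, 14.31 and 15.80 in untreated cells. Both gefitinib courses of ODC1 fell steeply over the first 10 h, and the course with EGF stayed above the other at 23 of 25 time points. The mean difference of ODC1 was 0.24 ± 0.04 (SE, adjusted p = 0.0226), against a difference of -2.78 between gefitinib and no treatment. PLK1 had levels of 8.54, 9.25 and 9.98 with gefitinib and of 8.93, 9.52 and 10.09 with EGF and gefitinib. EGF was on the higher side at 21 of 25 time points, with a mean difference of 0.24 ± 0.05 (SE, adjusted p = 0.039), and a second PLK1 probe differed by 0.22. The PLK1 pair at 0 h already differed by 0.27, and the mean of the later pairs lay -0.04 from that pair.

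TTL was dim. It lay at 1.97, 3.91 and 4.71 with gefitinib and at 3.19, 4.37 and 5.33 with EGF and gefitinib, and was well above background on 11 and 12 of 25 arrays. The difference of TTL was 0.69 ± 0.13 (SE, adjusted p = 0.039, higher at 23 of 25 time points), and it was 1.19 in the late window from 15 to 24 h. The other 2 TTL probes differed by 0.34 and -0.01, so the probes of this gene did not show the same change.

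SERPINB3 had levels of 10.70, 11.83 and 13.56 with gefitinib and of 10.30, 11.66 and 13.41 with EGF and gefitinib. SERPINB4 had levels of 11.03, 11.67 and 13.21 with gefitinib and of 10.66, 11.40 and 13.07 with EGF and gefitinib. In both genes the ranges overlapped widely, since both courses fell over the day, and EGF was on the lower side at 20 of 25 time points. SERPINB3 fell by 0.24 on the log2 scale (SE 0.05, adjusted p = 0.0409) and SERPINB4 fell by 0.24 (SE 0.04, adjusted p = 0.0319). At 0 h the pairs differed the other way, by 0.18 in SERPINB3 and 0.29 in SERPINB4, and with the 0 h pair included in the mean neither was called (adjusted p = 0.0759 for both) while the other 4 genes were. The daily mean difference had 1 sign on all 8 scan days of the PC9 slides for each of the 6 genes, and the daily means of SERPINB4 ran from -0.44 to -0.09. The genes were called on these same differences, so the shared sign is a description and no separate support. Treating scan day as a random block ended every call.

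The promoters of both SERPINB genes are shown because the genes moved together and are near copies. They lie on the minus strand of chromosome 18 at chr18:63661894-63662143 for SERPINB3 and chr18:63644257-63644506 for SERPINB4 (RefSeq, GRCh38.p14), and hold the 250 bases before the transcription start. Capitals mark the positions that differ.
SERPINB3: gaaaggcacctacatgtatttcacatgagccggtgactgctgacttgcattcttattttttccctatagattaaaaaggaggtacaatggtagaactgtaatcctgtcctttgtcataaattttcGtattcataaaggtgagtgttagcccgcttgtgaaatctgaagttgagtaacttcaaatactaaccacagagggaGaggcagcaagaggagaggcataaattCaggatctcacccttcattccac
SERPINB4: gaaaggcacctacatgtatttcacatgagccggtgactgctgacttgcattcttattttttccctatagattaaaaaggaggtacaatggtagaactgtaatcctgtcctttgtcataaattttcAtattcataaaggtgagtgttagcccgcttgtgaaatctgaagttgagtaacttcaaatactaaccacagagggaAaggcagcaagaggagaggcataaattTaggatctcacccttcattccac
Over these 250 bases 247 were identical (98.8%). The 3 differences were G126A, G201A and C228T, with the SERPINB3 base first and positions counted from 1 at the printed 5′ end. Each gene was read by 1 probe, and how far either probe also binds the transcript of the other was not tested.

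**Figure D1:**
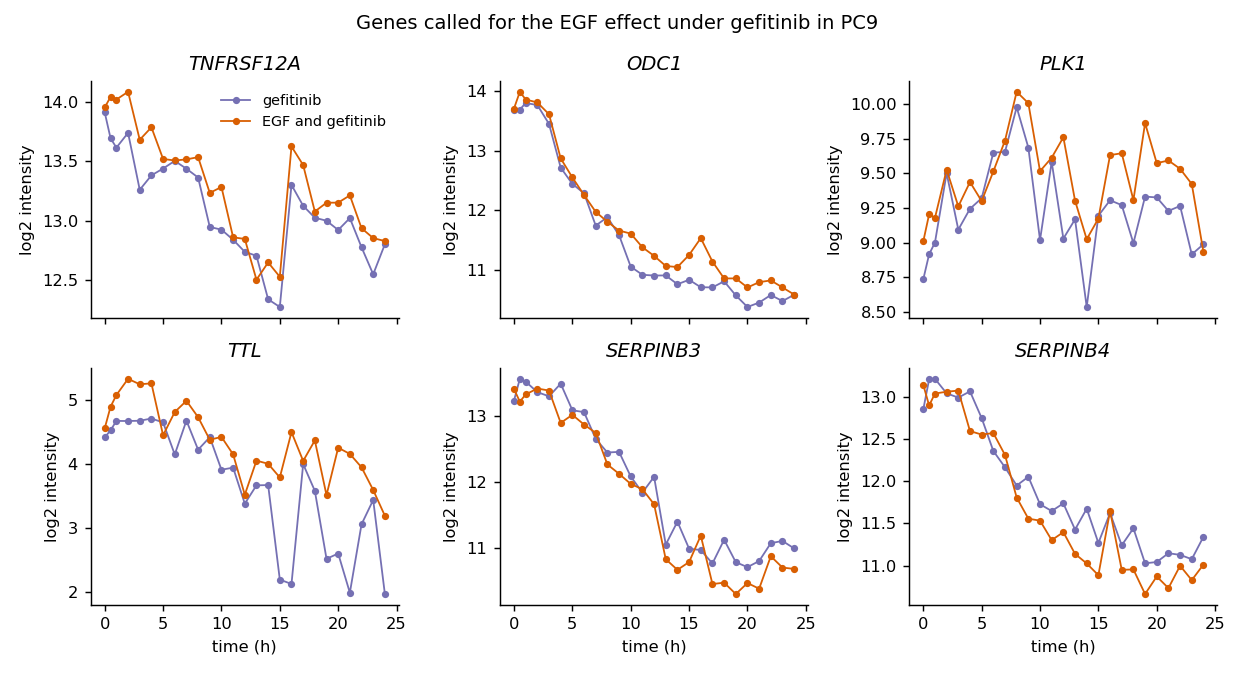
Levels (log2 intensity) of the 6 called genes against time (h) with gefitinib and with EGF and gefitinib, 1 array per point and 0 h included. The lines with EGF run above those without at 21 to 24 of 25 time points in TNFRSF12A, ODC1, PLK1 and TTL and below at 20 of 25 in SERPINB3 and SERPINB4, and the course over the day was larger than the gap in all 6 panels.

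The precision behind the many uncalled genes was as follows. The median SE of a difference was 0.066 and the median absolute difference 0.062. The 95% interval lay within 1.5-fold of no difference for 12705 genes (95.8%) and within 2-fold for 13217 (99.7%). Differences of neighbouring time points were nearly unrelated in the median gene (correlation 0.043), but not in every gene. Raising the variance of genes with a positive autocorrelation lowered the count at an unadjusted p under 0.05 from 1403 to 906 in limma. A negative autocorrelation was not allowed to lower the variance, so the count could only fall. The fall is therefore no measure of how related neighbouring time points were. The intervals make no such allowance and are too narrow where neighbouring time points are related.

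The direct outputs of ERK were examined next. None of the 10 ERK output genes was called by limma, and 4 were higher at an unadjusted p under 0.05, where 7.34% of all genes were. Limma's array weights called 2 of the 10 higher, SPRY2 and SPRY4, where they called 2.41% of all genes, and SPRY4 was also called without the pairs from 14 to 17 h (adjusted p = 0.0398). Of the 10, 9 had a mean above zero, as had 56.3% of all tested genes, and their median difference was 0.13 against 0.01 over all tested genes. In the pair at 0 h the median of the 10 was already 0.12, against 0.03 over all tested genes. Gefitinib against no treatment moved the same genes by a median of -2.99, all 10 were called lower, and with both agents they were still -2.88 from untreated cells. Gefitinib alone called 72.3% of all genes, 35% higher and 37.4% lower, and both agents called 75.4%, 36.9% higher and 38.5% lower, in comparisons that share arrays with the EGF comparison.

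DUSP6, the ERK phosphatase that follows ERK activity most closely, had levels of 12.88, 13.34 and 13.94 without treatment and of 12.97, 13.69 and 14.13 with EGF. It had levels of 5.00, 6.05 and 9.02 with gefitinib and of 4.82, 5.99 and 9.48 with EGF and gefitinib. The levels with the drug did not overlap those without it, and the pair of courses with the drug overlapped almost fully. The EGF difference of DUSP6 was 0.11 ± 0.08 under gefitinib (SE, adjusted p = 0.592, higher at 17 of 25, interval from -0.05 to 0.27) and 0.28 ± 0.04 without it (adjusted p = 1.49e-05, higher at 22 of 25). SPRY4, a Sprouty inhibitor of the RAS pathway, had levels of 3.73, 4.75 and 6.33 with gefitinib and of 4.37, 5.55 and 6.75 with EGF and gefitinib. Its difference was 0.38 ± 0.09 (SE, adjusted p = 0.125, higher at 21 of 25), against 0.76 in the pair at 0 h and -5.04 for gefitinib alone. SPRY2 differed by 0.17 (adjusted p = 0.188) and had a 0 h difference of 0.42.

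ETV5, an ETS factor induced by ERK, had levels of 1.92, 2.96 and 8.77 with gefitinib and of 2.18, 3.73 and 9.25 with EGF and gefitinib, and was well above background on 10 and 11 of 25 arrays. Its difference was 0.42 (adjusted p = 0.238, higher at 19 of 25), and a second ETV5 probe had -0.20. The related factor ETV4 differed by 0.05 (adjusted p = 0.741). The phosphatase DUSP4 differed by 0.07, the PHLDA1 gene by 0.16, the ephrin receptor EPHA2 by 0.16 and its relative EPHA4 by -0.10, and CCND1, the G1 cyclin, by 0.05, with adjusted p from 0.383 to 0.833. EGFR itself had medians of 11.59 with gefitinib and 11.58 with EGF and gefitinib and a difference of 0.01 (adjusted p = 0.945), against 0.26 without the drug (adjusted p = 1.2e-05). The endogenous EGF transcript differed by 0.02 (adjusted p = 0.91).

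**Figure D2:**
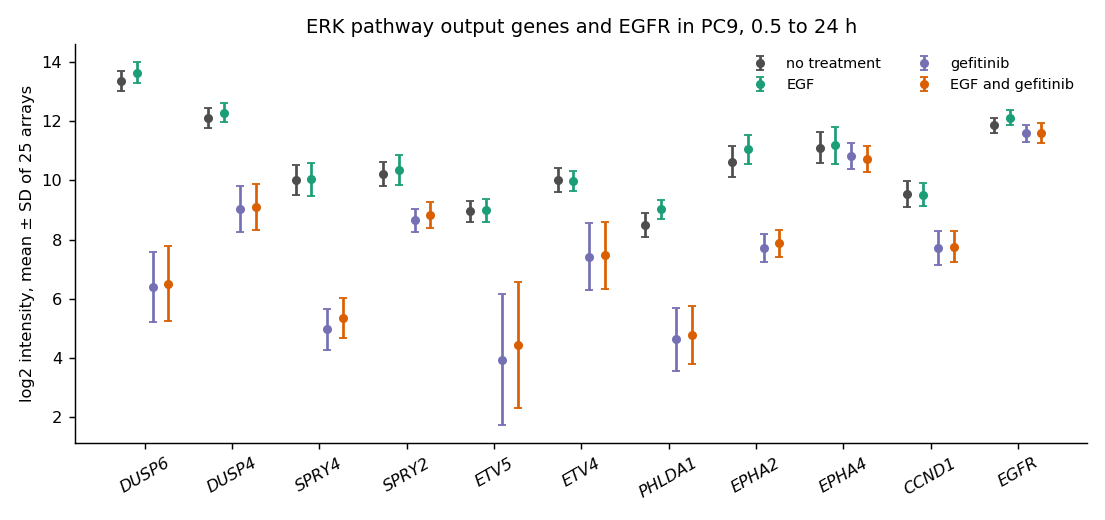
Mean ± SD over 25 arrays (log2 intensity) of the 10 ERK output genes and EGFR in the 4 PC9 treatments from 0.5 to 24 h. In DUSP6, SPRY4 and ETV5 the points with gefitinib lie 5.00 to 6.95 below no treatment, while those with EGF and gefitinib lie 0.11 to 0.42 above gefitinib alone.

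The feedback inhibitors of the pathway lay above zero as well, without reaching the threshold. Of 17 tested, 0 were called by limma and 6 were higher at an unadjusted p under 0.05 (7.34% of all genes were). With array weights 5 of the 17 were called, all higher, where 2.41% of all genes were called. Of the 17, 16 had a mean above zero, where 56.3% of all genes had. The median of the list was 0.12 under gefitinib and 0.27 without it. In the pair at 0 h of the gefitinib courses it was already 0.23. SPRED2, which blocks RAF activation by RAS, came closest, with levels of 2.42, 4.15 and 7.47 with gefitinib and of 3.18, 4.85 and 7.74 with EGF and gefitinib. Its difference was 0.51 ± 0.11 (SE, adjusted p = 0.0803, higher at 19 of 25), it was 0.84 at 0 h, it was called with the 0 h pair included (adjusted p = 0.0454), and a second, dimmer SPRED2 probe had -0.33.

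Immediate-early genes are the first transcripts that ERK induces. Of 29 tested, 0 were called by limma and 4 were higher at an unadjusted p under 0.05 (7.34% of all genes). A mean above zero was found for 23 (56.3% of all genes). The median of the list was 0.06 under gefitinib and 0.07 in the pair at 0 h. Array weights called 3, EGR2, KLF2 and NR4A1 (2.41% of all genes). EGR1, a zinc-finger factor, had levels of 3.57, 6.26 and 7.65 with gefitinib and of 5.84, 6.62 and 8.00 with EGF and gefitinib. Its difference was 0.39 ± 0.14 under gefitinib (SE, adjusted p = 0.327, higher at 18 of 25) and 0.86 without it (adjusted p = 6.25e-08, higher at 25 of 25). The nuclear receptor NR4A1 differed by 0.27 (adjusted p = 0.125, higher at 20 of 25) and KLF2 by 0.19 (adjusted p = 0.158), where EGF alone raised KLF2 by 1.02. A second, dimmer KLF2 probe had -0.19 under gefitinib and 0.06 without it, so the KLF2 values rest on 1 probe. EGR2 differed by 0.56 (adjusted p = 0.141) at levels that were well above background on 5 of 25 arrays of each course.

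The ERBB ligands form an outward loop, since ERK induces their genes and the shed proteins bind EGFR again. Of 7 tested, 0 were called by limma and 3 were higher at an unadjusted p under 0.05 (7.34% of all genes). Array weights called 1, HBEGF (2.41% of all genes). The median of the 7 was 0.14 under gefitinib, and it was 0.35 in the pair at 0 h. AREG, amphiregulin, had levels of 6.38, 7.04 and 7.93 with gefitinib and of 6.37, 7.23 and 8.21 with EGF and gefitinib, so that the courses overlapped over nearly their whole range. It differed by 0.22 ± 0.07 under gefitinib (SE, adjusted p = 0.272) and by 0.75 ± 0.05 without it (adjusted p = 9.78e-11), and the difference between the EGF effects was called (-0.52, adjusted p = 0.000116). HBEGF, another ligand, had 0.25 against 0.61 and a called difference of -0.37 (adjusted p = 0.00827), while a second HBEGF probe of similar level had -0.02 against 0.64, so the probes did not show the same difference under gefitinib. TGFA had 0.14 against 0.25, and the difference of its effects, -0.11, was not called (adjusted p = 0.346). Among the receptors and negative regulators of the family 0 of 17 were called and 1 (SOCS5, 0.23) was past an unadjusted p of 0.05 (10.6% of all genes). A second, brighter SOCS5 probe had -0.02.

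Proteases, adhesion genes and cytokines had medians of 0.08, 0.05 and 0.09 under gefitinib, against 0.18, 0.15 and 0.12 without it. In the pair at 0 h of the gefitinib courses these medians were 0.13, 0.22 and -0.01. Of 15 genes of the proteases and plasminogen system 0 were called by limma and 4 were past an unadjusted p of 0.05 (10.6% of all genes), and array weights called 3 (2.41% of all genes). Among these, SERPINE2, protease nexin, differed by 0.22, while the membrane protease MMP14 had -0.23 and matrilysin, MMP7, had -0.14 (adjusted p from 0.272 to 0.352). Of 20 integrin, laminin and migration genes 0 were called and 1 was past an unadjusted p of 0.05, the matrix protein TNC, which was called without the pairs at 14, 16 and 17 h (adjusted p = 0.0247) and with array weights (adjusted p = 0.00488). TNC differed by 0.52 (adjusted p = 0.141, higher at 22 of 25), which is close to its 0.50 without gefitinib, and the difference of these effects was 0.02 (SE 0.13, adjusted p = 0.947). Of 15 cytokine and chemokine genes 0 were called by limma and 1 (IL6, 0.28, adjusted p = 0.367) was past an unadjusted p of 0.05.

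The mitotic genes had a higher median than any other list examined. PLK1 was called of 21 tested, 16 were higher at an unadjusted p under 0.05 where 7.34% of all genes were, and 20 had a mean above zero. Their median difference was 0.16 under gefitinib and -0.21 for EGF without it, where 14 were called lower (15.1% of all genes were). Without the pairs at 14, 16 and 17 h, 3 of the 21 were called, PLK1, TPX2 and CDC20 (0.189% of all genes), and the median was 0.16. Array weights called 11 of the 21 (2.41% of all genes). The difference between these effects was called for 17 of 21, all towards more with gefitinib (8.98% of all genes, with 4.57% towards less). TPX2, a spindle assembly factor, had levels of 10.54, 11.29 and 12.14 with gefitinib and of 10.76, 11.66 and 12.29 with EGF and gefitinib. It differed by 0.29 ± 0.07 (SE, adjusted p = 0.125, higher at 22 of 25). The checkpoint kinase BUB1 differed by 0.26 (adjusted p = 0.125, higher at 22 of 25) and the centromeric histone CENPA by 0.25 (adjusted p = 0.109, higher at 21 of 25).

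The mitotic list had a median of -0.05 in the early window (0.5 to 6 h), of 0.30 in the middle window (7 to 14 h) and of 0.22 in the late window (15 to 24 h). NUSAP1, a microtubule-binding protein of the spindle, was 1 of 2 genes called in the middle window (0.43 ± 0.08, adjusted p = 0.047, 0.0151% of genes). The median of the list was 0.27 in the pair at 0 h, which is as large as the later differences, and it was 0.02 in PC9GRM2. In RNA of whole cultures, more cells in mitosis and more RNA per cell cannot be told apart. DNA replication genes had a median of 0.07 under gefitinib, with 0.12 in the pair at 0 h, and of -0.20 without the drug. Of these 28, 0 were called under gefitinib by limma with 5 higher at an unadjusted p under 0.05 (7.34% of all genes). With EGF alone 23 were called lower (15.1% of all genes), and 14 had a called difference between the effects towards more with gefitinib (8.98% of all genes).

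**Figure D3:**
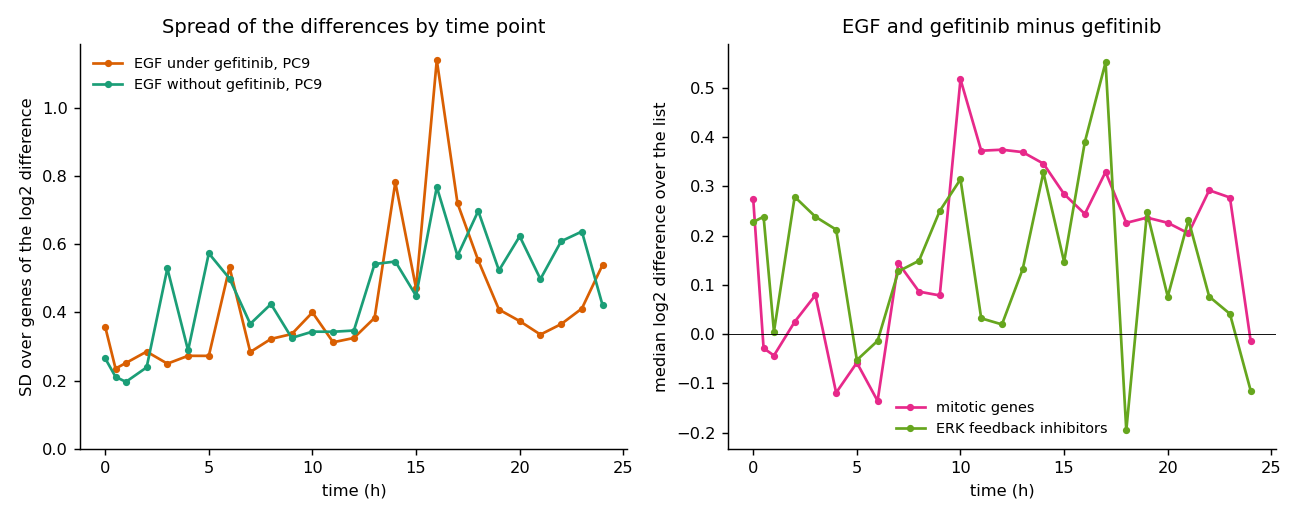
Left, SD over 13261 genes of the log2 difference with EGF at each time point (h) in PC9, with and without gefitinib. Right, median log2 difference with EGF under gefitinib over the 21 mitotic genes and the 17 ERK feedback inhibitors, where the mitotic line lies above zero from 7 to 23 h, with its highest value, 0.52, at 10 h.

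The PLK1 promoter is shown for the CHR element TTTGAA, which is known from promoters of genes of the late cell cycle and was searched after the values were seen. It lies on the plus strand at chr16:23678639-23678888 (RefSeq, GRCh38.p14), the 250 bases before the start, with TTTGAA in capitals.
PLK1: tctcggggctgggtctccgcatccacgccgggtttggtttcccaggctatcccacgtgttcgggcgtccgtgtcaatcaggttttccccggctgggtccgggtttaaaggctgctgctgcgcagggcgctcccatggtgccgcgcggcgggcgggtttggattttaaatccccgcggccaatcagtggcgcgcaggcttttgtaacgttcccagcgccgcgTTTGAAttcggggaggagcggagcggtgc
On either strand, TTTGAA was found in the promoters (250 bases before to 50 after the start) of 11 of the 18 mitotic genes with an entry (61.1%) and in 14.1% of 10688 promoters of tested genes. It was also found in both SERPINB promoters. Of the motifs of ERK-driven factors, the AP-1 motif TGANTCA was in 7.46% of all promoters, the ETS motif CCGGAAGT in 9.24% and the EGR motif GCGGGGGCG in 10.1%. ODC1 and TTL held the EGR motif, and none of the 5 called genes with an entry held the AP-1 or ETS motif. A match is a description of these letters and not a binding site.

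The other lists lay close to zero. Of 16 ATF4 target genes, which serve amino acid supply, 0 were called by limma and 6 were higher at an unadjusted p under 0.05 (7.34% of all genes), with a median of 0.06. Without the pairs at 14, 16 and 17 h, 2 of the 16 were called, SHMT2 and TRIB3 (0.189% of all genes), and array weights called 5 (2.41% of all genes). PSAT1, an enzyme of serine synthesis, differed by 0.29 (adjusted p = 0.119, higher at 17 of 25) under gefitinib and by -0.30 without it, and the difference was called (0.60, adjusted p = 3.56e-05). ASNS, asparagine synthetase, differed by 0.27 (adjusted p = 0.137, higher at 21 of 25). Of 27 interferon-stimulated genes 0 were called by limma and 3 were past an unadjusted p of 0.05 (10.6% of all genes), with a median of -0.00, while EGF without gefitinib lowered 15 of them (15.1% of all genes). The lists of sterol synthesis (21 genes), ribosome biogenesis (21), glycolysis (20), FOXO and insulin (17), BCL2 family (15) and Wnt targets (14) held no called gene in limma, with medians from -0.01 to 0.06. In that order, 0, 1, 2, 1, 1 and 2 genes were past an unadjusted p of 0.05 (10.6% of all genes). In the Wnt list these were NKD2 (-0.53, adjusted p = 0.279) and DKK1 (0.29, adjusted p = 0.393). A second, dimmer NKD2 probe had 0.09.

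The same ligand was then set against cells without the drug. EGF against no treatment called 3484 genes (26.3%), 1475 higher (11.1%) and 2009 lower (15.1%), and this comparison shares no array with the gefitinib courses. The 1475 genes that EGF raised had a median difference of 0.24 without gefitinib and 0.04 with it, and 67.9% of them were above zero with it, against 56.3% of all tested genes. The 2009 genes that EGF lowered had medians of -0.22 and 0.01. The difference between the EGF effects was called for 1797 genes (13.6%). Over all 13261 genes the EGF effects with and without gefitinib had a correlation of 0.095, which describes genes that are not independent of each other.

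Of the genes called without gefitinib, 13 were at least 2-fold higher and 11 at least 2-fold lower. Under gefitinib the median of the 13 went from 1.12 to 0.12 and that of the 11 from -1.28 to 0.01. These genes were chosen by their effect without the drug, so their smaller effect with it is a description and was given no test. Of the 13, 6 (BNC1, CD274, CXCL8, EGR4, LPAR6 and NAV3) were well above background on fewer than 13 of 25 arrays of both gefitinib courses, where values near zero are largely those of background signal. Over the other 7 the median was 1.11 without and 0.19 with gefitinib, and none of the 11 was dim in this way under gefitinib. Without the drug some of the 11 were dim. CYP4Z1, CCR7, SOX2 and MGAT3 were well above background on 7, 11, 17 and 24 of 25 untreated arrays. With EGF alone they were so on 0, 3, 6 and 10 of 25, so the sizes of these falls rest partly on background signal. The examples that follow were chosen after their values were seen. MMP1, interstitial collagenase, had levels of 5.05, 5.74 and 6.31 without treatment and of 4.98, 8.12 and 9.18 with EGF, and of 2.89, 4.23 and 5.31 with gefitinib and 3.44, 4.19 and 5.51 with EGF and gefitinib. EGF thus raised MMP1 by 1.95 ± 0.21 (SE, adjusted p = 3.11e-08), against 0.08 ± 0.09 under the drug (adjusted p = 0.718), where the probe was well above background on 13 and 12 of 25 arrays.

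CXCL10, a chemokine of T cells, was well above background on 24 and 25 of 25 arrays of the gefitinib courses and thus measurable there. It had levels of 4.86, 6.26 and 7.70 without treatment and of 2.95, 4.67 and 6.18 with EGF. With gefitinib it lay at 4.96, 6.45 and 7.09, and with EGF and gefitinib at 5.13, 6.31 and 7.09. EGF lowered CXCL10 by -1.57 without the drug (adjusted p = 5.33e-07) and had a difference of 0.12 with it (adjusted p = 0.661). CD274, which encodes PD-L1, had 1.09 without gefitinib and 0.16 with it, where it was well above background on 10 and 9 of 25 arrays. KLF2 had 1.02 and 0.19, while its second, dimmer probe had 0.06 and -0.19. CXCL8, interleukin 8, had 1.15 without the drug and with gefitinib was well above background on 0 of 50 arrays, where its listed difference of 0.00 is that of background signal. SOX2, a stem cell factor, fell by 1.32 with EGF alone, but was well above background on only 17 untreated and 6 EGF arrays of 25. Under gefitinib SOX2 had -0.27 (adjusted p = 0.188, lower at 20 of 25).

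**Figure D4:**
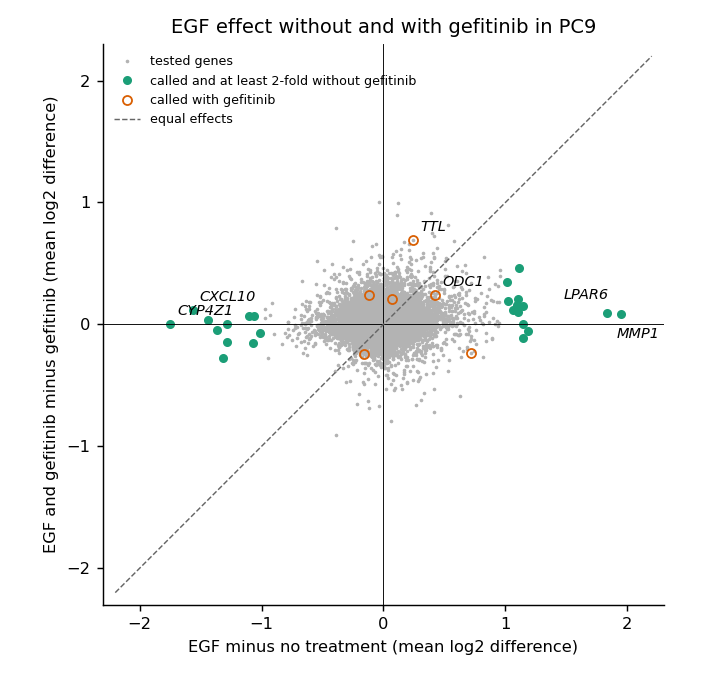
Mean log2 difference with EGF without gefitinib (x) and with gefitinib (y) for 13261 genes in PC9, on equal scales, with the line of equal effects dashed. The 24 genes called and at least 2-fold without gefitinib (green) lie between -0.27 and 0.46 on the y axis, and the 6 genes called under gefitinib (open circles) lie within 0.72 of zero on the x axis.

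Of the 6 genes called under gefitinib, ODC1 was also called without it (0.42, adjusted p = 1.28e-07, higher with EGF). For PLK1 the effects differed, -0.12 without and 0.24 with gefitinib (difference 0.36, adjusted p = 0.00118). SERPINB4 had a mean of 0.71 without and -0.24 with the drug (difference -0.95, adjusted p = 0.0404), but 1 untreated array, at 23 h, was listed at 5.67, and its median difference without gefitinib was 0.28. SERPINB3 had a median difference of 0.20 without gefitinib, where 1 EGF array, at 22 h, was listed at 1.90.

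In PC9GRM2, EGF under gefitinib called 380 genes (2.87%), 128 higher (0.965%) and 252 lower (1.9%). The arrays of the 2 lines are separate, and the correlation of the effects over all genes was 0.00055. TNFRSF12A, PLK1, TTL and SERPINB3 had differences of -0.10, 0.05, 0.01 and -0.76 in PC9GRM2, which were not called. ODC1 was called there in the other direction (-0.21 ± 0.04, SE, adjusted p = 0.00252, lower at 21 of 25), and the difference between the lines was 0.45 (adjusted p = 4.86e-05). SERPINB4 was lower in PC9GRM2 too (-0.39, adjusted p = 0.00252). The difference between the lines was called for 211 genes (1.59%), 146 towards PC9 (1.1%) and 65 towards PC9GRM2 (0.49%), and it was called for ODC1 and TNFRSF12A of the 6. The ERK output genes had a median of 0.13 in PC9 and -0.15 in PC9GRM2, the feedback inhibitors 0.12 and -0.10, and 1 gene of each list differed by line, ETV5 (0.63, adjusted p = 0.0255) and SPRED2 (0.65, adjusted p = 0.00833). The second probes of ETV5 and SPRED2 had -0.20 and -0.33 in PC9.

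**Figure D5:**
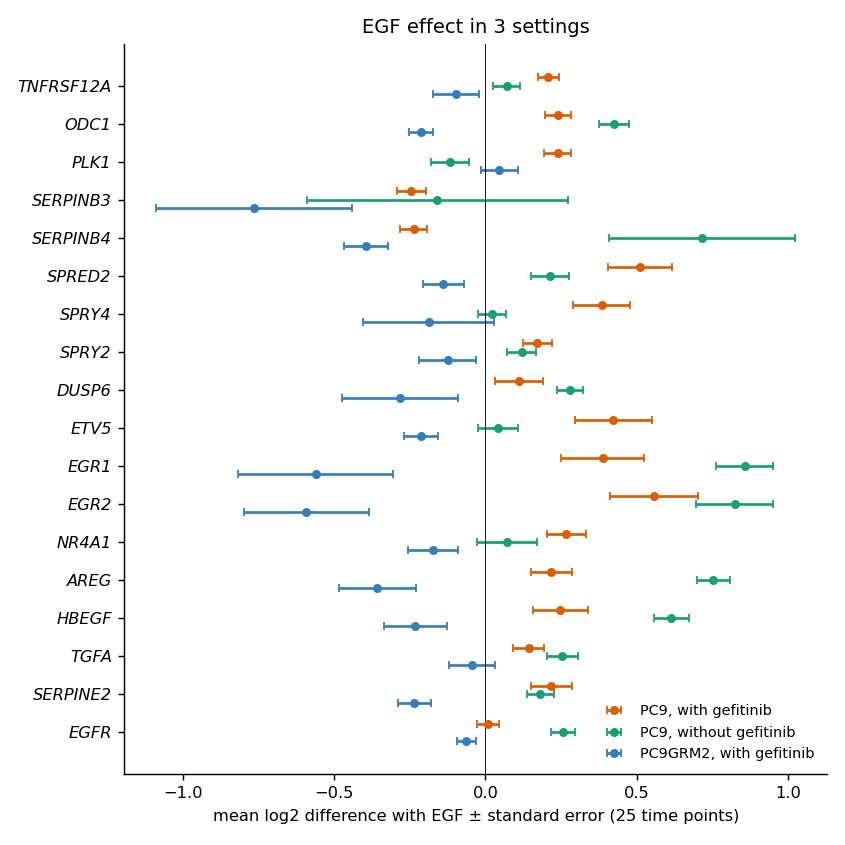
Mean log2 difference with EGF ± SE over 25 time points for 18 genes in PC9 with gefitinib, PC9 without gefitinib and PC9GRM2 with gefitinib. EGR1, EGR2 and AREG lie furthest right in PC9 without gefitinib (0.86, 0.82 and 0.75). They lie at 0.22 to 0.56 in PC9 with it, and below zero in PC9GRM2, while EGFR is at 0.01 in PC9 with the drug.

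Whether the effect depended on time was examined with means of 3 windows. In the early window 47 genes were called (0.354%), 42 higher (0.317%) and 5 lower (0.0377%), in the middle window 2, GPX3 and NUSAP1, and in the late window 6 (0.0452%). The 42 genes had a median difference of 0.44 early, -0.03 in the middle and 0.05 late. In the pair at 0 h, 38 of the 42 were below zero, with a median of -0.39, and all 5 early-lower genes were above zero. Over all tested genes 6194 of 13261 were below zero in that pair, with a median of 0.03. The pair is 1 array a side, so whether the early differences began after EGF was not tested. LAMP3, a lysosomal membrane protein, was the gene with the lowest p, at 1.19 early (adjusted p = 3.65e-05), -1.23 at 0 h and -0.10 late. BEX2 had 1.16 early (adjusted p = 5.46e-05) and -1.20 at 0 h.

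Others among the 42 are named after their values were seen. They included the receptor of interleukin 33, IL1RL1 (1.12, adjusted p = 0.00271), ASNS (0.60, adjusted p = 0.0055), PLAU, urokinase (0.35, adjusted p = 0.00676), and TNFRSF12A (0.29, adjusted p = 0.0403), the only one of the 42 that was also called over the whole course. The 5 lower genes were SOX2 (-0.59), TNFSF10, the death ligand TRAIL (-0.47), TNFRSF11B, osteoprotegerin (-0.46), the replication kinase CDC7 (-0.43) and the kinetochore protein DSN1 (-0.28).

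In the late window 5 genes were higher, CTSG (0.90), PDE1A (1.04), SFXN5 (1.93), TREX2 (1.33) and TTL (1.19), and ESRRG was lower (-0.85), which are 0.0377% and 0.00754% of genes. All 6 were dim and were well above background on 8 to 15 of 25 arrays of either course. The difference between late and early was called for LAMP3 (-1.28 ± 0.18, SE, adjusted p = 0.00133) and EEF1AKMT2, a lysine methyltransferase (-0.76 ± 0.13, SE, adjusted p = 0.0327), which is 0.0151% of genes. With scan day as a random block only LAMP3 was called (adjusted p = 0.00272, against 0.0915 for EEF1AKMT2), and with the 0 h pair counted as early limma called neither (adjusted p = 0.534 for both, 744 genes at an unadjusted p under 0.05).

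The pair at 0 h had an SD over genes of 0.358, and the pairs from 0.5 to 5 h of 0.235 to 0.285, so the baseline pair was further apart than the first pairs after EGF. The largest SD, 1.14, was at 16 h, with 0.782 at 14 h and 0.72 at 17 h. Differences averaged over 0.5 to 24 h had a correlation over genes of 0.278 with the pair at 0 h. Set against that pair, the mean of the later pairs differed for 8 of 13257 genes (0.0603%), 1 higher (0.00754%) and 7 lower (0.0528%). The baseline is 1 pair, assumed to vary like the later ones, so the count says little about a gene that is not among the 8.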

How the data were processed

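RNA of each PC9 or PC9GRM2 culture was labelled with Cy3 and hybridized to an Agilent 44K whole human genome array. The authors deposited scanner intensities, corrected for local background and not normalized between arrays, and a table of quantile normalized intensities. The file headers name Feature Extraction 10.5.1.1, a later version than the methods do. The table matched quantile normalization over all arrays to within a median log2 difference of 2.2e-07.

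In R 4.3.3, intensities were quantile normalized over 208 arrays, values under 1 were set to 1, and log2 was taken. Spots marked as outliers were removed (0.0793% of tested values). Of 41000 probes, 24794 were named through their RefSeq accession and 16206 were left out. Each gene took its probe of largest variance, as in the methods. Of 16961 genes, 13261 were tested, for which 13 or more of the 26 arrays of some course were well above background. No depth applies to arrays, whose number limits the precision.

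Differences at matched time points from 0.5 to 24 h were tested with limma 3.58.1 (lmFit, eBayes with trend, two-sided) and Benjamini-Hochberg adjustment at 0.05. Arrays of a time point share a slide, which is where the pairing comes from. Windows of 7, 8 and 10 time points were fitted together. Scripts were tested on simulated data.

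Genes named were the called genes with the largest changes, those of the ERK output list, EGFR and EGF, up to 4 genes of lowest p per other list, the 3 of lowest p for the EGF effect with minus without gefitinib and for late minus early, and counts of 5 or fewer. One of them is not reported here. Of those for with minus without gefitinib, FAM78A differed by -0.93 without gefitinib and 0.08 with it, RGS3 by -0.60 and 0.06, and SPRR1B by 1.14 and 0.15. The comparison, the lists and the markers were chosen with earlier results of these data known, and no set test was run. RefSeq promoters gave the sequences, and TNFRSF12A was not among them. Alternatives were other scalings, background corrections, probes, floors, filters, tests, pairings and time points. The normexp correction started from the median signal. Figures were drawn with matplotlib 3.10.9.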

Additional observations from a re-analysis of the deposited data

Results flagged for a closer look

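The EGF effect under gefitinib differed between the lines, by limma's test of PC9 minus PC9GRM2 at matched time points, for 11 of the 99 named genes (11.1%, against 1.59% of all tested genes), and in all 11 it was higher in PC9. The differences, on the log2 scale, were 1.15 for EGR2 (adjusted p = 0.0178), 0.65 for SPRED2 (adjusted p = 0.00833), 0.63 for ETV5 (adjusted p = 0.0255) and 0.57 for AREG (adjusted p = 0.0396). They were 0.48 for HBEGF (adjusted p = 0.0403, by 1 of its 2 probes, of which the other had -0.02 in PC9), 0.47 for SPRR1B, a cornified envelope protein (adjusted p = 0.0456), and 0.46 for IL1B, interleukin 1 beta (adjusted p = 0.0396). ODC1 had 0.45 (adjusted p = 4.86e-05), SERPINE2 0.45 (adjusted p = 0.00175), NR4A1 0.44 (adjusted p = 0.0255) and TNFRSF12A 0.30 (adjusted p = 0.0451). EGR2 and ETV5 were dim in both gefitinib courses of PC9, as given above. The second, dimmer probes of SPRED2 and ETV5 had -0.33 and -0.20 in PC9, so the values of these genes rest on 1 probe each.

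The differences came from means above zero in PC9 and below zero in PC9GRM2 in each of these genes. EGR2 had 0.56 in PC9, higher at 18 of 25 time points, and -0.59 in PC9GRM2, higher at 1 of 25. AREG had 0.22 and -0.36, and SERPINE2 0.22 and -0.24. In PC9GRM2 the effect was called by itself for ODC1 (-0.21), ETV5 (-0.21), SERPINE2 (-0.24) and IL1B (-0.28), and in PC9 for ODC1 and TNFRSF12A. The named genes include those of lowest p in PC9, so their share is not that of a free choice. The lines were scanned on 8 and 9 separate days and no PC9GRM2 array had a saturated feature, and the part of this in the differences was not tested.

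Within PC9 the effect differed between the late and the early window for LAMP3 (late minus early -1.28, adjusted p = 0.00133) and EEF1AKMT2 (-0.76, adjusted p = 0.0327). Both had the opposite sign to their early difference in the pair at 0 h, with -1.23 for LAMP3 and -0.45 for EEF1AKMT2, and neither was called with the 0 h pair counted as early (adjusted p = 0.534 for both). EEF1AKMT2 was also lost with scan day as a random block (adjusted p = 0.0915).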

How the results depend on the processing

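The 6 calls under gefitinib rested on small margins. Leaving out 1 time point gave 0 to 16 calls, with 0 without 0.5 or 10 h, 1 without 12, 19, 20 or 21 h, 2 without 1, 4, 13 or 18 h, 3 without 8, 9, 15 or 22 h, 11 without 24 h and 16 without 16 h. By limma, 0 genes were called with unpaired courses (139 at an unadjusted p under 0.05), with time points 3 h apart (432), with a variance inflated for autocorrelation (906), with scan day as a random block (1122) and with 0.5 to 12 h alone (1563). The fit for autocorrelation never lowered a variance, here and below, and could only lose calls. The time of a sample is its replicate number, so the unpaired fit is the one with no replicate block. With the 0 h pair included there were 6, all higher, of which 4 were among the 6. There were 3 calls with the probe of highest mean, 11 with the methods' t-test, 1 with at least 1.5-fold, 1 with 13 to 24 h alone, and 4 to 8 under the scaling, background, floor and filter alternatives. Of alternatives chosen after seeing the data, 25 genes were called without the pairs at 14, 16 and 17 h, 24 without those from 14 to 17 h, 320 (2.41%, 227 higher and 93 lower) with limma's array weights, among them 11 of 21 mitotic genes and 5 of 17 feedback inhibitors, and 2 with a row and column surface removed. A sign turned in 3 cases where the value was called on either side. TTL had -0.0081 with the probe of highest mean, and against the 0 h pair PLK1 had -0.036 and ENO1, an enzyme of glycolysis, -1.35. Of 4431 values of named genes not called, 132 more had the other sign and were not called there either, as in EGF and EGFR. The cause was not tested in any of these.

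The difference with minus without gefitinib (1797 calls) gave 159 with time points 3 h apart, 1106 with autocorrelation, 193 at 1.5-fold, 395 and 768 in the first and second 12 h, and 1504 to 2212 without 1 time point. EGF without gefitinib (3484) gave 442 unpaired, 818 with points 3 h apart, 193 at 1.5-fold, 1731 with 13 to 24 h alone, and 3221 to 3696 without 1 time point. PC9GRM2 (380) gave 0 unpaired (173 unadjusted), 118 with points 3 h apart, 91 with autocorrelation, 614 with scan day, 8 at 1.5-fold, 0 with 0.5 to 12 h alone (594), and 225 to 874 without 1 time point. PC9 minus PC9GRM2 (211) gave 124 with 75th percentile scaling, 129 with normexp, 140 with no filter, 0 with points 3 h apart (1474), 36 with autocorrelation, 19 at 1.5-fold, 2 and 56 in the first and second 12 h, and 74 (without 19 h) to 381 (without 0.5 h). Late minus early (2) gave 5 with normexp, 4 with the methods' t-test, 1 with scan day, 0 with the 0 h pair included (744), and 1 to 14 (without 6 h).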
